A study of Mus musculus with 17 samples.

Results

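The lysozyme genes Lyz1 and Lyz2 were followed in cultured mouse peritoneal macrophages (PMs), because Lyz2 is the locus that carries the Cre recombinase used to delete IKKβ. Both genes were taken from the deposited table by symbol, which gave 2 genes of 21683 listed. They were selected on the levels described here, the group differences of Lyz2 and Lyz1 in these same libraries, so those levels and differences are given as a description and no test was made on them. The data were 17 RNA-Seq libraries of thioglycollate-elicited PMs from eight-week-old male mice of strain C57BL/6. Every mouse carried loxP-flanked IKKβ alleles and received 1 mL of 3% thioglycollate 3 days before collection according to the labels, an interval for which the study's methods give another number. Cells were allowed to attach for 4 h and were then cultured for 12 h with PBS or with 100 nM of the HIV protein Tat, a viral transactivator that also acts on cells from outside.

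The 3 groups compared were PMs of IKKβF/F mice cultured with PBS (named F/F PBS, n = 6) or with Tat (named F/F Tat, n = 6) and PMs of IKKβΔMye mice cultured with Tat (named ΔMye Tat, n = 5). ΔMye mice carried the LysM-Cre knock-in in heterozygous form beside the floxed alleles that all groups share. The labels do not say that each library came from its own mouse, though the study's heatmap legends describe the libraries as mouse biological replicates. Whether F/F PBS and F/F Tat cultures shared mice is not stated, so spread and p-values measure the difference between these libraries only. PBS-treated ΔMye cells were not analysed here, so whether a difference of the ΔMye group needs Tat cannot be told. The IKKβ deletion and the Cre-carrying Lyz2 allele enter the ΔMye group together and cannot be told apart.

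Lysozymes are secreted and lysosomal enzymes that cleave peptidoglycan, the polymer of bacterial cell walls, and the fragments they release are read by intracellular sensors. Mice have a duplicated lysozyme gene. Lyz2 (lysozyme M) is the form of macrophages and neutrophils and is among their most abundant transcripts, while Lyz1 (lysozyme P) is the form of Paneth cells in the small intestine. In LysM-Cre mice the Cre coding sequence was inserted at the translation start of Lyz2, so the targeted copy makes Cre in place of lysozyme M.

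Lyz1 and Lyz2 lie side by side on chromosome 10, both on the minus strand. In the GENCODE annotation of build GRCm38, the build of the deposited values, Lyz2 spans chr10:117277331-117282321 and Lyz1 spans chr10:117287797-117292868. Their starts are 10.547 kb apart, and 5.475 kb separates the end of one gene from the beginning of the other. Each gene has 4 exons, and exons 2 and 3 have equal lengths in both genes, 165 and 79 bases. The coding parts are 447 bases long in both genes and differ at 22 positions (95.1% identity), which changes 18 codons, 12 of them to a codon for another amino acid. The transcripts are 1263 bases (Lyz1) and 1316 bases (Lyz2) long. Their 3′ untranslated parts align with 95.6% identity.

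The window of 60 coding bases that best separates the genes is shown because only reads over such places can be assigned to 1 of them. It covers coding bases 61 to 120, inside exon 1, and the 9 bases in capitals differ between the genes.
Lyz1: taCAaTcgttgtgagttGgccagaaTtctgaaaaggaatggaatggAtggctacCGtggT
Lyz2: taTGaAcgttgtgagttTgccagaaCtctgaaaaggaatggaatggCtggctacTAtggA

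The longest coding run with no difference is shown as the opposite case. It is 118 bases long, from coding base 276 in exon 2 to 393 in exon 4, and a read inside it does not tell the genes apart.
Lyz1 and Lyz2: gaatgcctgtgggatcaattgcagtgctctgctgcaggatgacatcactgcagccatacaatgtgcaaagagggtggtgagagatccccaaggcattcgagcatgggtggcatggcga

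Of all 31-base sequences of the transcripts, 422 occur in both genes, which is 34.2% of those of Lyz1 and 32.8% of those of Lyz2. None of the 31-base sequences of either gene occurs in the transcript of any other gene. Over 75 bases the shared part fell to 6.22% of Lyz1 and 5.96% of Lyz2. The deposited values came from a program that divides shared reads between genes by probability, so each value contains an estimate of which gene a shared read came from, and the size of that part was not tested. The shared sequences lie in blocks along most of each transcript, as the plot of their positions shows. The first of Lyz2 begins at base 50 and the last of Lyz1 begins at base 1132.

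**Figure D1:**
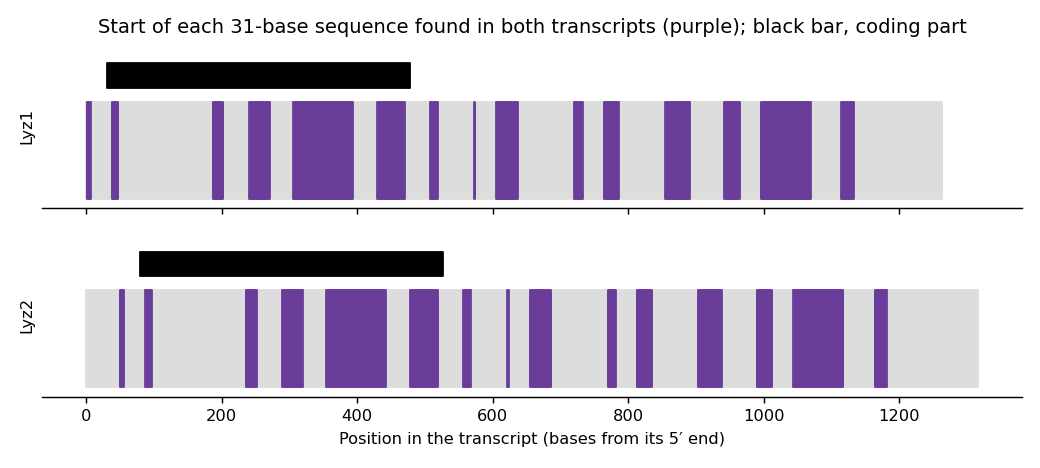
Positions along the Lyz1 (top) and Lyz2 (bottom) transcripts, in bases from the 5′ end, at which a 31-base sequence that occurs in both transcripts begins (purple), with the coding part as a black bar. Over the coding part and the 3′ untranslated part, shared blocks alternate with starts whose 31 bases differ between the genes at 1 base or more. Shared starts make up 34.2% of the positions in Lyz1 and 32.8% in Lyz2.

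The proximal promoters are shown because the levels of the genes differed between the groups in different ways, as given below. RefSeq windows of 250 bases before the start matched both genes and aligned with 79.4% identity. Positions are counted from the RefSeq start. For Lyz2 that start lies inside exon 1 of the GENCODE transcript, which begins at 117282321. The nearest bases of the Lyz2 window are therefore exon in GENCODE. The stretch from position -150 to -51 (build GRCm38.p6, minus strand) lies at chr10:117292919-117293018 for Lyz1 and chr10:117282323-117282422 for Lyz2. It has 79 identical bases, and the 21 that differ are in capitals.
Lyz1: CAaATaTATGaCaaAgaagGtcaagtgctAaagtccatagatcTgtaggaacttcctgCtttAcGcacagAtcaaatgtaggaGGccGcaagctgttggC
Lyz2: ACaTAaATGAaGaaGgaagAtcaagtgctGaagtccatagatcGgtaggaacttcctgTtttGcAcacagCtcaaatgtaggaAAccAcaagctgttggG

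Both stretches hold 1 match to the ETS family motif CAGGAAGT, at position -100 on the opposite strand, where it reads acttcctg. That motif was found on either strand in 2.69% of 32851 promoter windows of 250 bases. The C/EBP family motif TTNNGNAA was present in 36.8% of windows, and it had 1 match in each gene at different places, -209 in Lyz1 and -55 in Lyz2. The Lyz2 match reaches into exon 1 of the GENCODE transcript. The κB site of the immunoglobulin κ enhancer, bound by NF-κB (0.14% of windows), and the TATA box letters TATAAA (12.4%) had 0 matches in the 250 bases of both genes. A match or its lack describes these letters only.

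Ikbkb, which encodes IKKβ, was examined first as a check of the labels. Its level was 26.8 ± 1.99 TPM (transcript abundance corrected for length, as a share of the library, mean ± SD) in F/F PBS, 23.2 ± 1.44 with Tat and 16.4 ± 2.59 in ΔMye Tat. All ΔMye libraries were below all F/F Tat libraries, with a log2 difference of -0.51 (SE 0.08, adjusted p = 4.51e-05 by limma). Groups did not overlap for 36.6% of tested genes in this comparison, and 5.26% had a more negative difference than Ikbkb. Log2 differences are between group means of log2(TPM + 0.1), their standard errors and p-values come from a linear model of all 3 groups, and p-values were adjusted over all 10451 tested genes. The transcript was thus present in ΔMye PMs at 70.7% of the F/F Tat level as deposited. After the scaling described below it was at 60.7%, a log2 difference of -0.72. Values of single exons were not analysed here, so the deleted part was not examined by itself. Macrophage markers were present in every library, with a summed level of 3858 to 4225 TPM (F/F PBS), 3435 to 3660 (F/F Tat) and 3741 to 3883 (ΔMye Tat) over 8 genes. Cd68 was the largest part of that sum (means of 2596, 1744 and 1886 TPM), and single markers moved in opposite directions. Csf1r was at 381, 64.0 and 104 TPM and Cd14 at 203, 842 and 1009 TPM. With Tat 3 of the 8 were higher and 5 lower, and in ΔMye Tat 4 were higher and 1 lower than in F/F Tat. Of 12 neutrophil markers, which matter because neutrophils also use Lyz2, Ngp and Elane were at 0 in all libraries and 6 had a mean under 1 TPM in every group. The summed level of the neutrophil list was 125 to 140 TPM (F/F PBS), 196 to 212 (F/F Tat) and 233 to 254 (ΔMye Tat), and its part in the lysozyme values was not tested. Most of that sum was Csf3r (means of 54.9, 128 and 145 TPM) and S100a8 (53.8, 68.6 and 91.4 TPM), which other myeloid cells can also express, while Mmp8 (15.9, 2.57 and 3.82 TPM) and Retnlg (5.07, 0.671 and 0.298 TPM) were lower in both Tat groups. Of the 6 neutrophil markers tested, 2 were higher and 2 lower with Tat, against 17% and 67.6% of all tested genes. Between ΔMye Tat and F/F Tat 3 were higher (S100a8, Mmp8 and Csf3r) and 0 lower, against 38.8% and 8.87%. After the scaling described below, 0 were higher and 0 lower in that genotype comparison. B cell markers summed to at most 25.4 TPM, T and NK cell markers to 8.18, mast cell and eosinophil markers to 44.7, mesothelial markers to 4.29 and dendritic cell markers to 35.8 TPM in any library. Monocyte markers summed to between 356 and 421 TPM over all libraries. In bulk RNA fewer cells of a type and less RNA per cell cannot be told apart. TPM hold no read counts, so depth and counting error are unknown. The listed genes summed to between 889318 and 903576 TPM per library, with between 9260 and 10378 genes at 1 TPM or more.

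TPM are shares of a library, and Tat moved many genes at once. The median log2 difference over the 10451 tested genes was -0.65 with Tat in F/F PMs and 0.22 in ΔMye Tat relative to F/F Tat. After scaling each library by the median of its gene ratios those medians were -0.01 and 0.01. Values are therefore given as deposited and, where it matters, after this scaling, and a difference can be read against those medians.

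Lyz2 held rank 3 among the listed genes in every F/F PBS library. Its level there was lowest at 21615 TPM, with a median of 22597 and a highest value of 22806 TPM. With Tat it was 6823 TPM at the lowest, 6969 at the median and 7246 at the highest. In ΔMye PMs given Tat the levels were 4154, 4283, 4374, 4237 and 4617 TPM. The groups did not overlap in either comparison, the F/F PBS libraries being the highest and the ΔMye Tat libraries the lowest. Lyz2 held rank 10 to 12 in F/F Tat and rank 21 to 23 in ΔMye Tat, and took up 2.51%, 0.775% and 0.483% of all listed TPM in the F/F PBS, F/F Tat and ΔMye Tat groups.

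Group means of Lyz2 were 22382 ± 463 TPM (SD, n = 6), 6993 ± 149 (n = 6) and 4333 ± 178 (n = 5). The F/F PBS mean was 3.20-fold that of F/F Tat, a log2 difference of -1.68 (SE 0.03) with Tat. After scaling the difference was -1.05, in the same direction. ΔMye Tat stood at 62.0% of F/F Tat, a log2 difference of -0.69 (SE 0.03), and at 53.6% after scaling (-0.90). The standard deviation within a group was 2.07% of the mean for F/F PBS, 2.13% for F/F Tat and 4.10% for ΔMye Tat. This spread and the standard errors of both members are description only, since the members were selected on these differences.

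Read against all tested genes, the Tat difference of Lyz2 was within the common range. Of the tested genes, 67.6% had a lower level in F/F Tat (adjusted p under 0.01), 19.4% were lower with a fold over 3 as well, and 17.6% had a more negative difference than Lyz2. Groups did not overlap for 77.6% of genes in that comparison. The difference of ΔMye Tat from F/F Tat was nearer the edge, since 2.95% of tested genes had a more negative value. In that comparison 8.87% of genes were lower, 0.316% were lower with a fold over 3, and 36.6% had groups that did not overlap.

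Lyz1 was measured at a far lower level than Lyz2 and in a different order of groups. In F/F PBS its lowest, median and highest levels were 123.6, 126.5 and 129.6 TPM. In F/F Tat they were 90.3, 95.5 and 101.4 TPM. In ΔMye Tat the levels were 181.6, 192.8, 203.6, 195.5 and 196.7 TPM. All ΔMye Tat libraries were above all F/F PBS libraries, and these were above all F/F Tat libraries. The rank of Lyz1 among the listed genes was 903 to 949, 1095 to 1212 and 628 to 690 in these groups.

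The means of Lyz1 were 126.4 ± 2.21 TPM (SD, n = 6) for F/F PBS, 95.3 ± 4.59 (n = 6) for F/F Tat and 194.0 ± 7.99 (n = 5) in ΔMye Tat. F/F Tat was lower than F/F PBS by a log2 difference of -0.41 (SE 0.03) as deposited but higher by 0.22 after scaling, with no overlap of the groups either way. The direction of the Tat difference of Lyz1 thus depends on the scaling, and 61.5% of tested genes had a more negative difference with Tat than Lyz1 did. ΔMye Tat was 2.04-fold F/F Tat, a log2 difference of 1.03 (SE 0.04), and 1.76-fold after scaling (0.81). Of the tested genes, 96.9% had a lower difference of ΔMye Tat from F/F Tat than Lyz1. At an adjusted p under 0.01, 38.8% of genes were higher in ΔMye Tat, and 0.44% were higher with a fold over 3 as well.

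**Figure D2:**
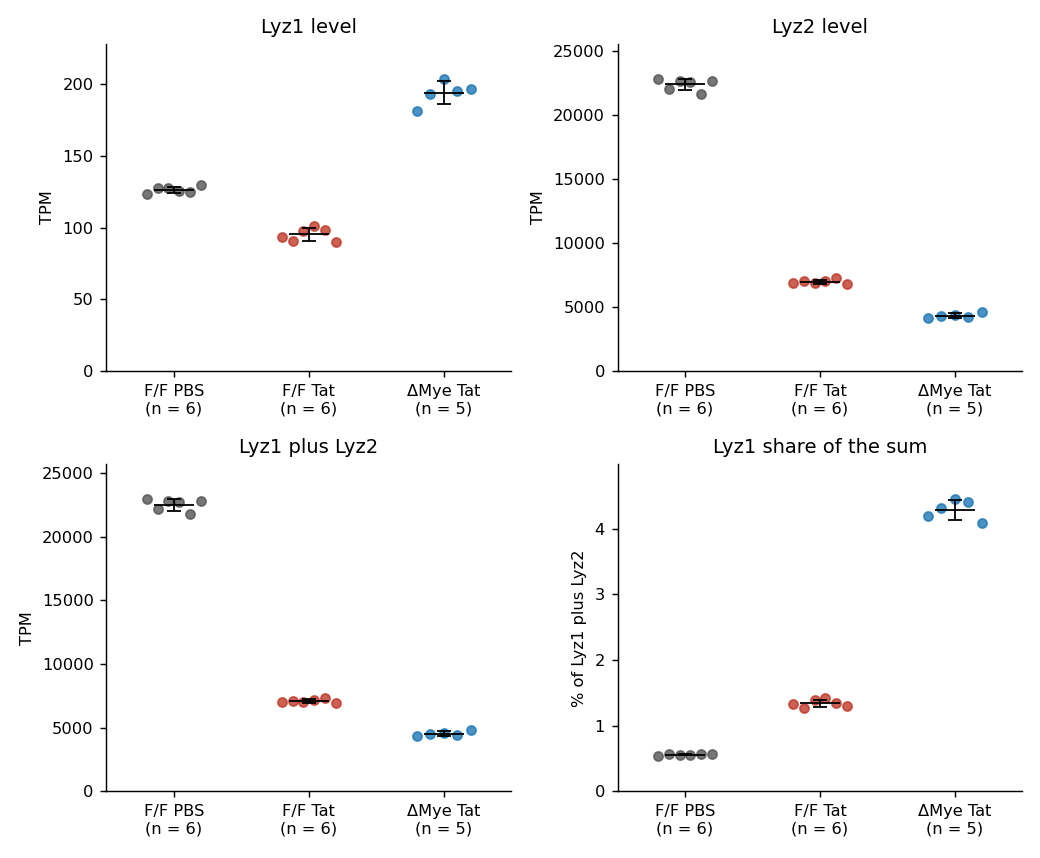
Level of Lyz1 and Lyz2 in TPM, their sum in TPM and the share of Lyz1 in that sum in percent, in each of the 17 libraries (points), with the group mean and SD (black). Lyz2 and the sum are highest in F/F PBS and lowest in ΔMye Tat, and Lyz1 is highest in ΔMye Tat at 181.6 to 203.6 TPM. No groups overlap in any panel, as was so for 77.6% of tested genes with Tat and 36.6% between ΔMye Tat and F/F Tat.

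ΔMye Tat was also set beside F/F PBS, with the caution that genotype and treatment both differ there. Lyz2 in ΔMye Tat was 19.4% of its F/F PBS level, a log2 difference of -2.37, and 25.9% after scaling (-1.95). Lyz1 was 1.54-fold its F/F PBS level, a log2 difference of 0.62, and 2.06-fold after scaling (1.04). The F/F Tat and F/F PBS libraries enter more than 1 of these comparisons, so the differences are not independent of each other.

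The sum of both genes depends little on how shared reads were divided between them, since the transcripts are of similar length. It was 22508 ± 464 TPM (SD, n = 6) for F/F PBS, 7088 ± 152 (n = 6) for F/F Tat and 4527 ± 182 (n = 5) for ΔMye Tat. Its lowest, median and highest values were 21739, 22725 and 22930 TPM in F/F PBS and 6913, 7063 and 7344 TPM in F/F Tat. In ΔMye Tat the sum was 4336, 4476, 4578, 4433 and 4814 TPM. The groups did not overlap, as was so for 77.6% of tested genes with Tat and 36.6% between ΔMye Tat and F/F Tat. The log2 differences of the sum were -1.67 with Tat and -0.65 between ΔMye Tat and F/F Tat (-1.03 and -0.86 after scaling). Against F/F Tat, the mean of ΔMye Tat differed by 98.7 TPM for Lyz1 and by -2660 TPM for Lyz2, so the gain of the former was small beside the loss of the latter.

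The share of Lyz1 in the sum does not depend on the scaling of a library. It was 0.562% ± 0.0139 (SD, n = 6) for F/F PBS, 1.34% ± 0.0535 (n = 6) for F/F Tat and 4.29% ± 0.151 (n = 5) for ΔMye Tat. Library values ran from 0.539% to 0.575%, from 1.27% to 1.42% and from 4.09% to 4.45%. Put as a ratio, a library held 177 ± 4.48 transcripts of Lyz2 for each of Lyz1 for F/F PBS, 73.5 ± 2.95 for F/F Tat and 22.3 ± 0.83 for ΔMye Tat. The order of the groups was therefore the same on both scales for the share, unlike for Lyz1 alone.

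**Figure D3:**
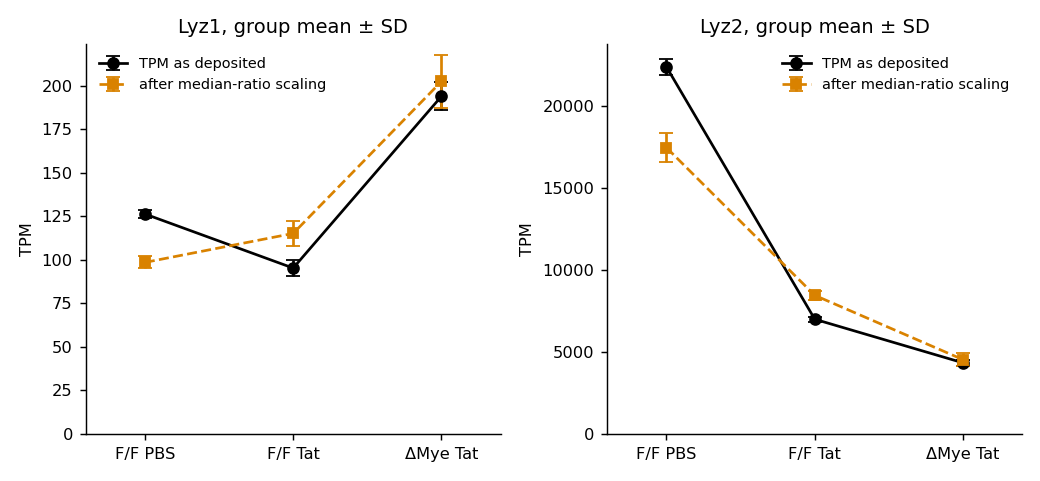
Group means ± SD of Lyz1 and Lyz2 in TPM as deposited (black circles) and after median-ratio scaling of the libraries (orange squares). The Lyz2 order is the same on both scales, while Lyz1 of F/F Tat lies below F/F PBS as deposited (95.3 against 126.4) and above it after scaling (115 against 98.5).

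Because Lyz2 alone made up 2.51% of listed TPM in F/F PBS, the other genes gain share when it is lower. With TPM set to a fixed total over all genes other than these members, the log2 differences with Tat were -0.45 for Lyz1 and -1.72 for Lyz2, and those between ΔMye Tat and F/F Tat were 1.03 and -0.69.

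Of 10 genes of the lysozyme family that were looked up, these were the only members at 1 TPM or more. Lyzl1, Lyzl6, Spaca3, Spaca5, Lyg1 and Lyg2 were listed at 0 in all 17 libraries. Lyzl4 reached at most 0.326 TPM, and Lalba, which encodes the lysozyme-related milk protein alpha-lactalbumin, was above 0 in 1 library at 0.119 TPM. No other family member passed the filter of at least 1 TPM in at least 5 libraries, so none was tested.

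Genes with levels most like each member were found by the root mean square difference of centred log2 levels over the 17 libraries, among 5822 genes with a mean of at least 10 TPM. The nearest genes to Lyz1 were Ddhd1 (0.14 on the log2 scale), Fam174a (0.14), Cnn2 (0.15), Gpc1 (0.16) and Tnfaip8 (0.16). Ddhd1, a phospholipase, had means of 17.1 ± 1.27, 12.6 ± 0.855 and 26.4 ± 2.95 TPM in F/F PBS, F/F Tat and ΔMye Tat. The nearest genes to Lyz2 were Car6 (0.13), Gprc5b (0.20), Vegfa (0.21), Gsto1 (0.22) and Dhrs3 (0.22). Car6, a secreted carbonic anhydrase, had means of 50.1 ± 3.67, 17.6 ± 1.64 and 10.2 ± 0.86 TPM, and Vegfa, the vascular growth factor, of 33.1 ± 4.53, 8.4 ± 1.06 and 5.97 ± 0.524 TPM. Lyz1 and Lyz2 were 1.20 apart on this measure, so neither was near the other. All libraries share the group structure, and the measure says nothing of a common control.

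The products of lysozyme are handled and sensed by a set of genes that was examined as a list. Of its 16 genes 12 were tested. With Tat 6 were higher and 4 lower at an adjusted p under 0.01, against 17% and 67.6% of all tested genes, and 5 were higher and 3 lower with a fold over 3 as well, against 5.21% and 19.4%. The median log2 difference of the list was 1.30, beside -0.65 over all tested genes. After scaling 8 were higher and 4 lower with a median of 1.87, beside 37.8% and 37.5% of all genes. The list was chosen with earlier results of these data known, so its difference from all genes is a description.

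The 6 genes of the list that rose with Tat were a transporter, 2 sensors with their kinase, and 2 surface receptors. Slc15a3, a transporter that brings peptidoglycan fragments out of endosomes, rose from 339 ± 14.8 to 1835 ± 22.7 TPM in F/F PBS and F/F Tat. Nod1, a sensor of such fragments, rose from 10.3 ± 0.693 to 41.9 ± 2.6 TPM, and Nod2, the sensor of muramyl dipeptide, from 5.90 ± 0.865 to 24.0 ± 1.4 TPM. Ripk2, the kinase that acts below both sensors, rose from 10.7 ± 1.32 to 37.3 ± 1.06 TPM. Among surface receptors, Tlr2 rose from 172 ± 6.4 to 509 ± 9.69 TPM and its co-receptor Cd14 from 203 ± 6.64 to 842 ± 20.2 TPM. The log2 differences of these genes were 2.44 for Slc15a3 (adjusted p = 1.73e-22 by limma), 2.02 for Nod1 (1.29e-16), 2.02 for Nod2 (3.63e-14), 1.80 for Ripk2 (8.98e-16), 1.57 for Tlr2 (1.22e-20) and 2.05 for Cd14 (5.1e-23).

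Other genes of the list fell with Tat. Slc46a3, a lysosomal transporter of muropeptides, fell from 8.63 ± 1.32 to 0.279 ± 0.111 TPM. Slc15a4, an endolysosomal transporter related to Slc15a3, fell from 32.6 ± 4.73 to 8.60 ± 1.38 TPM, and Nagk, the N-acetylglucosamine kinase that also phosphorylates muramyl dipeptide, from 107 ± 5.51 to 50.4 ± 1.49 TPM. Pglyrp1, a secreted peptidoglycan-binding protein, fell from 1.58 ± 0.539 to 0.456 ± 0.256 TPM and was listed at 0 in 1 F/F Tat library. The log2 differences were -4.57 for Slc46a3 (adjusted p = 2.3e-14), -1.91 for Slc15a4 (6.42e-11), -1.08 for Nagk (4.95e-15) and -1.79 for Pglyrp1 (0.000255). The Pglyrp1 difference was -0.87 after quantile normalization, where it missed the threshold (adjusted p = 0.0789). Pglyrp2 and Xiap did not pass the test as deposited but passed as higher after scaling (1.54 and 0.59, adjusted p = 0.0012 and 4.76e-05) and after quantile normalization (1.89 and 0.58), and Pglyrp2 also passed without F/F PBS replicate 3 or F/F Tat replicate 8 (adjusted p = 0.00758 and 0.00718).

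Between ΔMye Tat and F/F Tat 6 of the 12 were higher and 2 lower, against 38.8% and 8.87% of all tested genes, and 1 was higher with a fold over 3, Pglyrp1. The list's median was 0.28, beside 0.22 over all tested genes, and after scaling 1 gene was higher and 3 lower, with a median of 0.07. Slc15a3 and Ripk2 were lower in ΔMye Tat, at 1438 ± 72.0 and 31 ± 1.11 TPM. Their log2 differences were -0.35 (adjusted p = 4.53e-08 by limma) and -0.26 (0.00191). Pglyrp1 was higher at 1.69 ± 0.458 TPM, a log2 difference of 1.90 (adjusted p = 0.000566). Slc46a3, Slc15a4 and Nagk were higher as deposited, by 0.69, 0.62 and 0.35 (adjusted p = 0.00695, 0.00093 and 1.79e-06 by limma). After scaling none of them passed the test (0.54, 0.41 and 0.14). Nod1 (38.6 ± 3.68 TPM) and Nod2 (26.4 ± 2.99 TPM) did not pass the test as deposited, and their differences were -0.12 and 0.13. After scaling Nod1 passed as lower (-0.33, adjusted p = 1.28e-05), as it did after quantile normalization (-0.24, adjusted p = 0.000541). Cd14 and Tlr2 were higher as deposited, by 0.26 and 0.12, but at 0.05 and -0.09 after scaling neither passed the test.

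Transcription factors known to act on vertebrate lysozyme genes were examined as another list, also chosen with earlier results of these data known. Of its 11 genes 10 were tested. With Tat 2 were higher and 5 lower, of which Cebpa alone was past a fold of 3, and the median was -0.29. Over all tested genes 17% were higher and 67.6% lower, beside 20% and 50% of this list. After scaling 5 were higher and 2 lower, with a median of 0.34, beside 37.8% and 37.5% of all genes. Cebpa, a C/EBP factor of myeloid differentiation, fell from 174 ± 10.7 to 7.77 ± 0.603 TPM (log2 difference -4.47, adjusted p = 2.66e-23), the greatest difference of this list. Cebpd, another C/EBP factor, fell from 18.1 ± 1.16 to 6.11 ± 0.287 TPM (-1.55, adjusted p = 1.87e-15), while Cebpb, the C/EBP factor of inflammatory responses, rose from 520 ± 38.5 to 993 ± 35.3 TPM (0.94, adjusted p = 6.77e-14). Gabpb1, a subunit of the ETS-type factor GABP, rose from 14.6 ± 1.22 to 28.9 ± 1.33 TPM (0.99, adjusted p = 1.42e-12). Spi1, which encodes the ETS factor PU.1, was at 353 ± 13.7 and 264 ± 13 TPM, a difference of -0.42 as deposited but 0.21 after scaling, so its direction with Tat depends on the scaling as that of Lyz1 does. Cebpe and Sp3 fell by 0.84 and 1.02 on the log2 scale, of which after scaling neither passed the test (-0.26 and -0.40). Without F/F PBS replicate 3 or 4 Cebpe missed the threshold too (adjusted p = 0.0104 and 0.0102 by limma). Gabpa, Sp1 and Runx1 did not pass the test as deposited. Gabpa and Runx1 passed as higher after scaling (0.71 and 0.92, adjusted p = 1.5e-09 and 7.95e-09), and Runx1 also passed without F/F PBS replicate 2, F/F Tat replicate 9 or ΔMye Tat replicate 23 (adjusted p from 0.00101 to 0.00657).

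In ΔMye Tat 5 of the 10 factors were higher than in F/F Tat and 0 lower at an adjusted p under 0.01 by limma, with a median of 0.39, beside 38.8% and 8.87% of all tested genes. After scaling 3 were higher and 1 lower with a median of 0.17, beside 16.6% and 19.1%. Cebpa was at 19.2 ± 0.623 TPM (log2 difference 1.29, adjusted p = 5.05e-13), Cebpd at 12.9 ± 0.735 TPM (1.07, adjusted p = 2.51e-11) and Spi1 at 370 ± 14.0 TPM (0.49, adjusted p = 2.57e-09), and these were the 3 that also passed after scaling. Cebpb and Sp3 were higher as deposited only, at 1138 ± 51.4 and 10.2 ± 1.19 TPM, and Sp3 missed the threshold when any 1 of 6 libraries was left out (adjusted p from 0.0102 to 0.0135). At an unadjusted p under 0.05 the number lower was 1, Cebpe. Gabpb1, at 27.2 ± 1.06 TPM, passed as lower after scaling.

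**Figure D4:**
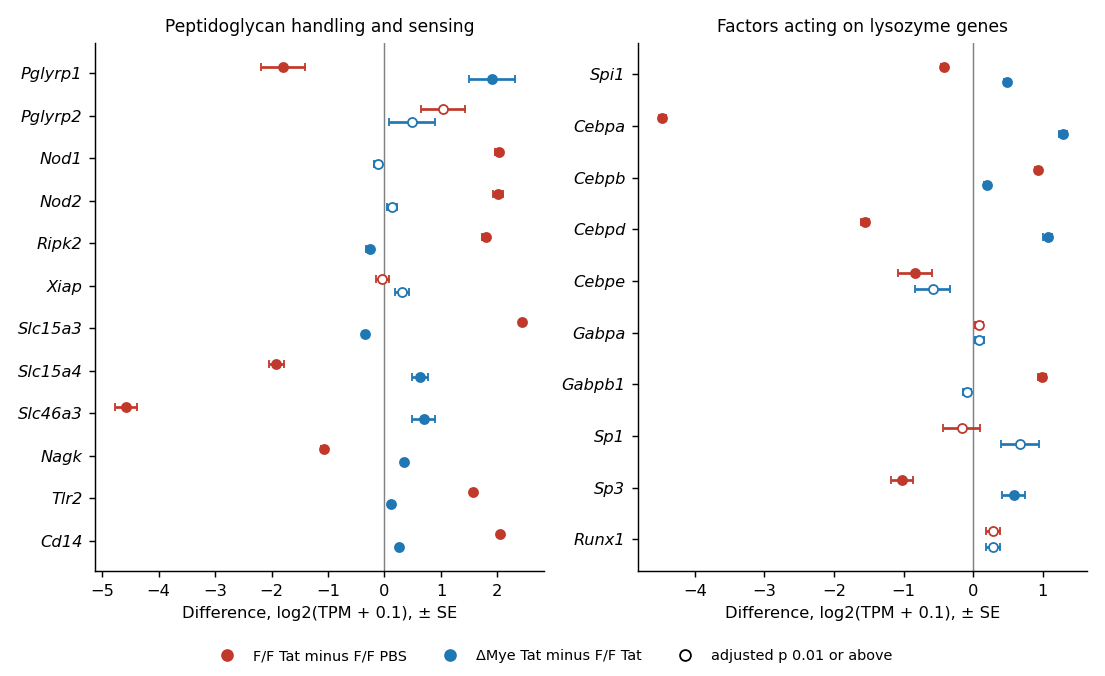
Difference in log2(TPM + 0.1), with its standard error, for tested genes of the peptidoglycan list (left) and of the factor list (right), with Tat in F/F PMs (red) and between ΔMye Tat and F/F Tat (blue). Filled points passed an adjusted p under 0.01 by limma. Slc15a3, Nod1, Nod2, Ripk2, Tlr2 and Cd14 lie to the right with Tat, and Slc46a3 and Cebpa lie farthest to the left at -4.57 and -4.47.

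Genes around Lyz2 were examined because a knock-in allele is inherited together with its flanks. Of 21 protein-coding genes that start within 1 Mb of the Lyz2 start, members left out, 20 were listed and 12 were tested. Between ΔMye Tat and F/F Tat 5 were higher, 3 lower and 4 neither, with a median of 0.11, beside 38.8% higher and 8.87% lower over all tested genes. After scaling 1 was higher and 4 lower with a median of -0.10, beside 16.6% and 19.1%. Within 5 Mb 45.5% of 33 tested genes were called in either direction, beside 49.3% of 471 tested genes on the rest of chromosome 10.

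Il22 was the 1 neighbour past a fold of 3 in ΔMye Tat. It encodes the cytokine IL-22 and starts 923 kb from Lyz2. Il22 had 0 TPM in every F/F PBS library, so no fold is given for Tat, and it stood at 15.5 to 18.3 TPM in F/F Tat. In ΔMye Tat it stood at 0.786 to 1.64 TPM, a log2 difference of -3.82 (SE 0.17, adjusted p = 8.29e-13). Mdm2, the ubiquitin ligase of p53, rose with Tat from 50.9 ± 3.74 to 125 ± 6.12 TPM and was lower in ΔMye Tat at 107 ± 6.45 TPM (-0.23, adjusted p = 0.000777). Rab3ip, an exchange factor for Rab GTPases 332 kb away, rose with Tat from 7.07 ± 0.446 to 25.1 ± 1.9 TPM and was at 20.4 ± 2.65 TPM in ΔMye Tat (-0.30, adjusted p = 0.00241), with groups that overlapped.

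The differences of the other neighbours between ΔMye Tat and F/F Tat were smaller in size than those of both lysozyme genes. Yeats4, the nearest tested gene on the side away from Lyz1 at 57.8 kb, was at 47.2 ± 1.89, 28.9 ± 2.41 and 37.6 ± 2.64 TPM in F/F PBS, F/F Tat and ΔMye Tat, with log2 differences of -0.71 and 0.38 (-0.08 and 0.17 after scaling, where neither passed the test). Cpsf6, 97.7 kb away on the side of Lyz1, was at 28.2 ± 1.8, 29.3 ± 1.6 and 31.3 ± 2.51 TPM and passed the test in neither comparison as deposited, while its Tat difference of 0.06 became 0.69 after scaling (adjusted p = 1.11e-11) and 0.46 after quantile normalization. Slc35e3, a member of a nucleotide sugar transporter family, was at 8.30 ± 0.593, 2.99 ± 0.135 and 4.68 ± 0.47 TPM (-1.44 and 0.62, and 0.42 in ΔMye Tat after scaling). Nup107, a nuclear pore protein, was higher in ΔMye Tat by 0.42, the chaperonin subunit gene Cct2 by 0.12 and the small GTPase gene Rap1b by 0.10, and after scaling these were at 0.22, -0.09 and -0.11 and passed no test. Rap1b also missed the threshold when any 1 of 7 libraries was left out (adjusted p from 0.0127 to 0.0299). Cnot2, Frs2 and Mdm1 did not pass the test between ΔMye Tat and F/F Tat as deposited, and after scaling Cnot2 passed as lower (-0.22, adjusted p = 0.00379). With Tat, 4 of the 12 neighbours were higher and 6 lower, beside 17% and 67.6% of all tested genes. Past a fold of 3, beside Il22 with its F/F PBS libraries at 0, were Rab3ip as higher and Mdm1 as lower, against 5.21% and 19.4% of all tested genes.

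**Figure D5:**
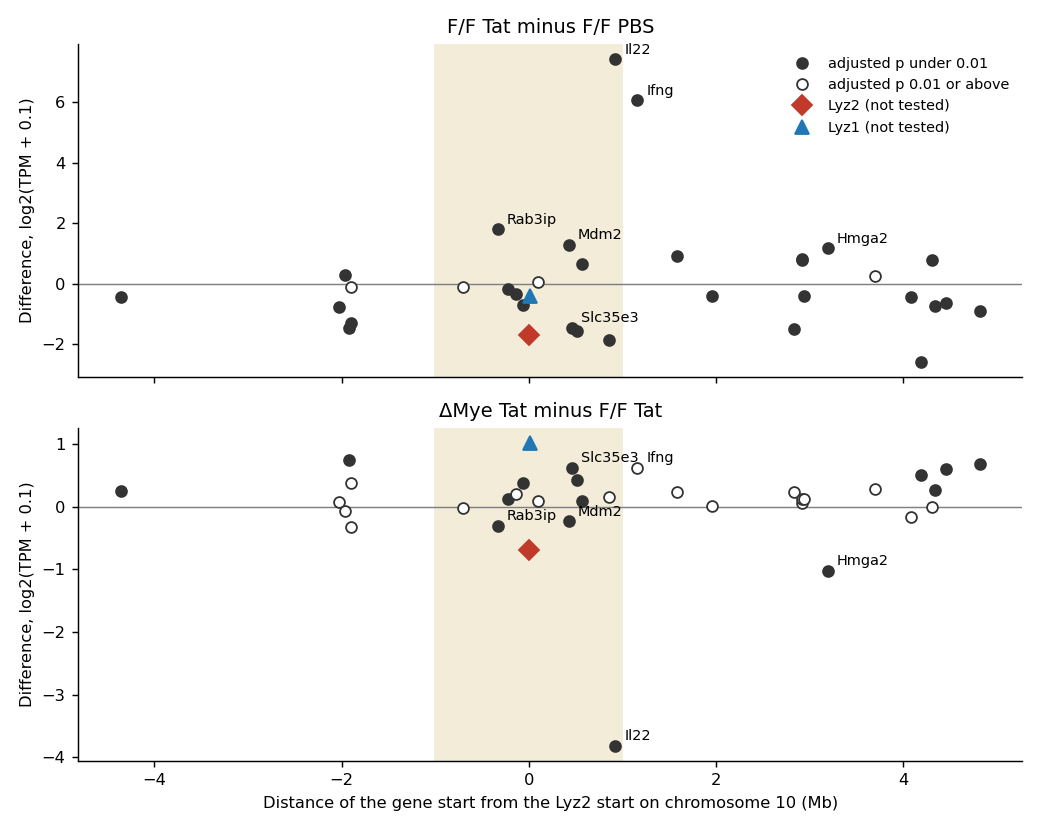
Difference in log2(TPM + 0.1) with Tat in F/F PMs (top) and between ΔMye Tat and F/F Tat (bottom) for tested protein-coding genes on chromosome 10, against the distance in Mb of the gene start from the Lyz2 start. The shaded band is within 1 Mb, filled circles passed an adjusted p under 0.01, and Lyz1 (blue triangle) and Lyz2 (red diamond) were not tested. In the lower panel Lyz1 at 1.03 and Lyz2 at -0.69 lie apart in opposite directions at almost the same place, and Il22, whose value in the upper panel rests on the added 0.1 TPM because its F/F PBS libraries hold 0, lies lowest at -3.82.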

How the data were processed

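RNA-Seq of thioglycollate-elicited PMs was analysed in 17 libraries grouped by the sample labels. A further part of the genotype, which all groups share, is not reported here. The deposited TPM values were made by the authors with Salmon and an Ensembl annotation (GRCm38, named mm10 in the submitters' processing notes). Their own comparison, with edgeR on values not analysed here, was not repeated. The members and gene lists were chosen with earlier results of these data known.

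Tests were made with limma 3.58.1 in R 4.3.3 on log2(TPM + 0.1) of the 10451 genes that reached 1 TPM in 5 or more libraries, using a linear model, contrasts and eBayes with a mean trend. All 3 groups were fitted together, which left 14 residual degrees of freedom. The p-values were adjusted over all tested genes (Benjamini-Hochberg), and the call was an adjusted p under 0.01. Counts that also required a fold over 3, the study's threshold, are given beside it. Fold changes are on the log2(TPM + 0.1) scale, which understates changes of low genes. The code was tested on simulated data. TPM leave depth and counting error unknown.

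Named genes were Lyz1, Lyz2, Ikbkb, the genes of the lists, all tested protein-coding genes starting within 1 Mb of Lyz2, and for each member the 5 tested genes with the most similar levels. Coordinates and transcripts were from GENCODE M21 (GRCm38) and promoters from RefSeq (GRCm38.p6). Alternatives were a pseudocount of 1, no filter or a minimum of 5 TPM, median-ratio scaling, quantile normalization, TPM rescaled without the members, a fit of only the groups compared, a window of 2 Mb, 75-base sequences and leaving out each library.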

Additional observations from a re-analysis of the deposited data

Results flagged for a closer look

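In 117 groups of values, those of Lyz1, Lyz2, their sum, the Lyz1 share and 35 tested genes, 3 libraries lay farther from the others than Dixon's limit at the 95% level allows, and chance flags about 1 in 20 groups. None of them was a value of Lyz1, Lyz2, their sum or their share. Ripk2 was at 39.3 TPM in F/F Tat replicate 7, beside 36.2 to 37.3 TPM in the other F/F Tat libraries. Nagk was at 53.2 TPM in F/F Tat replicate 10, beside 49.2 to 50.6 TPM in the others. Cnot2 was at 18.7 TPM in F/F PBS replicate 6, beside 21.6 to 23.3 TPM in the others.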

How the results depend on the processing

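Scaling between libraries moved the results most, and the truth of either scale cannot be read from TPM. After median-ratio scaling the Lyz1 difference with Tat turned to 0.22. The other member differences kept their direction under that scaling, with 0.81 for Lyz1 and -0.90 for Lyz2 between ΔMye Tat and F/F Tat, 1.04 and -1.95 against F/F PBS, and -1.05 for Lyz2 with Tat. The sum moved to -1.03, -0.86 and -1.89 in the same comparisons. Quantile normalization gave -0.35 and 0.95 for Lyz1 with Tat and in ΔMye PMs, -0.53 and -2.20 for Lyz2 of ΔMye Tat set against F/F Tat and F/F PBS, and -0.49 and -2.15 for the sum. The Lyz1 share then differed by 0.934 percentage points with Tat, and ΔMye Tat exceeded F/F Tat by 2.69 and F/F PBS by 3.62 points. With TPM rescaled without the members, the Tat difference was -1.72 for Lyz2 and -1.71 for the sum. Over 75 bases, 6.22% of Lyz1 and 5.96% of Lyz2 sequences were shared.

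Ikbkb with Tat turned to 0.43 after median-ratio scaling and 0.24 after quantile normalization, and passed the test with the 2 groups alone (-0.20, adjusted p = 0.0033 by limma) and without ΔMye Tat replicate 23 (adjusted p = 0.00581). Leaving out 1 library gave -0.23 to -0.17 for it.

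With Tat, all tested genes split into 3902 higher and 3870 lower on the median-ratio scale and 3658 and 4144 after quantile normalization, against 1774 and 7068 as deposited. Between ΔMye Tat and F/F Tat the splits were 1710 and 1970, 1893 and 1615, and 4055 and 927. The scalings moved list counts likewise. Peptidoglycan genes higher in ΔMye Tat became 1 after median-ratio scaling. Factors with Tat became 5 higher and 2 lower, and 4 and 3 after quantile normalization. Factors in ΔMye Tat became 3 higher and 1 lower, and 1 was lower after quantile normalization. Neighbours with Tat became 8 higher and 3 lower, and 7 higher after quantile normalization, and those higher in ΔMye Tat became 1 and 3. Within 2 Mb, 7 of 19 tested genes were higher with Tat as deposited, which is 36.8% beside 33.3% within 1 Mb.

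Directions of single genes turned too. After median-ratio scaling these were, with Tat, Xiap 0.59, Spi1 0.21, Sp1 0.47, Cnot2 0.54, Cct2 0.45 and Frs2 0.29, and in ΔMye Tat against F/F Tat, Nod2 -0.079, Tlr2 -0.089, Cebpb -0.017, Gabpa -0.12, Cct2 -0.091, Frs2 -0.0067, Cpsf6 -0.12, Rap1b -0.11 and Mdm1 -0.025. After quantile normalization they were, with Tat, Xiap 0.58, Cebpe 0.23, Sp1 0.35, Cnot2 0.41 and Frs2 0.62, and in ΔMye Tat, Nod2 -0.029, Gabpa -0.10, Frs2 -0.072, Cpsf6 -0.056 and Mdm1 -0.054. Without ΔMye Tat replicate 23, Sp1 (0.88) and Runx1 (0.37) also passed as higher in ΔMye Tat, and Slc46a3 missed the threshold there when any 1 of 6 libraries was left out (adjusted p from 0.0123 to 0.022). Leaving out 1 library gave -0.11 to 0.026 for Xiap with Tat, -0.040 to 0.021 for Cnot2 and -0.098 to 0.28 for Mdm1 in ΔMye Tat, which passed the test in none.

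Leaving out 1 library moved no Lyz1, Lyz2, sum or share difference beyond the spread within groups, and moved no count by over 1.5 times. It gave -0.43 to -0.39 for Lyz1 and -1.69 to -1.67 for Lyz2 with Tat, and 1.01 to 1.05 and -0.71 to -0.68 between ΔMye Tat and F/F Tat. A pseudocount of 1, no filter and a minimum of 5 TPM did so for none of these either, but without a filter Slc46a3, Sp3 and Rap1b missed the threshold in ΔMye Tat (adjusted p = 0.0174, 0.0201 and 0.0126), as did Slc46a3 with the pseudocount of 1 (0.0462). No lysozyme other than the members could be tested at a minimum of 1 or 5 TPM. No paired analysis was made, because the labels do not say which libraries, if any, came from the same mouse. The fit treated the groups as independent. The cause of these dependences was not tested.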
